A study of Mus musculus with 4 samples.

Results

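The expression of 40 mouse genes of the endoplasmic reticulum (ER) was examined in Neuro-2a cells, a neuroblastoma line from an albino strain A mouse that is widely used as a neuron-like model. The genes were chosen by symbol, and fall into 3 roles: 21 chaperones and folding enzymes, 12 genes of ER-associated degradation (ERAD) and 7 stress sensors and their processing enzymes. Of these, 37 were each read by 1 probe set, out of 19505 genes in all. Pdia4, Manf and Mbtps2 were not analysed here. Exposed cells received 30 µM deltamethrin, a pyrethroid insecticide, for 24 h, and the others received the vehicle, 0.1% DMSO, for the same time. Each treatment had 2 Clariom S Mouse arrays, on which a gene is normally read by a single probe set, and expression is a log2 value made by RMA (robust multi-array average). The labels do not state whether both arrays of a treatment came from separate cultures. The p-values therefore reflect the spread between these arrays alone, which may be technical. The spread used for each gene is also drawn from that of all probe sets (limma, 4.43 prior against 2 residual degrees of freedom). With no batch or scan label in use, batch and treatment cannot be told apart.

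Proteins that enter the secretory pathway fold in the ER with the help of chaperones such as BiP, lectins that bind sugar chains, and oxidoreductases that form disulfide bonds. Proteins that fail to fold are pulled back into the cytosol and degraded by the proteasome, which is ERAD. When misfolded proteins build up, the membrane sensors IRE1, ATF6 and PERK start the unfolded protein response. IRE1 splices the Xbp1 mRNA, ATF6 is cut free in the Golgi by the site 1 and site 2 proteases, and PERK phosphorylates eIF2α. Both XBP1 and ATF6 are known to switch on chaperone and ERAD genes in mammalian cells, so transcripts of these genes are often read together as a measure of ER stress.

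Array medians lay between 5.61 and 5.63 and array maxima between 18.65 and 18.75. Differences between 2 arrays over all probe sets had an SD of 0.37 within the deltamethrin pair and 0.33 within the vehicle pair, and of 0.40 to 0.45 across treatments. Of 12 measured neuroblast markers, 10 were brighter on average than the middle probe set, and their summed level (log2 of the sum of linear values) was 17.21 to 17.32 on deltamethrin arrays and 17.50 to 17.54 on vehicle arrays. Their median level was 10.70 to 10.98 on deltamethrin arrays and 11.71 to 11.72 on vehicle arrays. None of the 12 was called, and 11 had an estimate below 0 (91.7%, against 53.3% of all probe sets). On both deltamethrin arrays 8 were lower (66.7%, against 23.5% of all probe sets). At an unadjusted p below 0.05, 5 were lower, beside 6.84% of all probe sets, with Isl1 at -1.14 ± 0.17 (adjusted p = 0.074). The marker Th went the other way and was higher on both deltamethrin arrays (0.90 ± 0.27, adjusted p = 0.242). It was the 1 marker higher at an unadjusted p below 0.05. Markers of other cells were dim: 0 of 7 astrocyte, 0 of 5 oligodendrocyte and Schwann, 2 of 7 microglia and macrophage and 0 of 7 fibroblast markers were brighter than the middle probe set on average over the 4 arrays. The fibroblast marker Pdgfrb was at 5.75 and 6.52 on deltamethrin arrays, above the array medians, and at 5.33 and 4.58 on vehicle arrays (1.18 ± 0.34, adjusted p = 0.225). The summed levels were 6.96 to 6.98 on deltamethrin arrays against 7.06 to 7.22 on vehicle arrays for astrocytes, 5.80 to 6.08 against 5.87 to 5.94 for oligodendrocytes and Schwann cells, 7.37 to 7.61 against 7.48 to 7.68 for microglia and macrophages, and 7.44 to 7.81 against 7.30 to 7.37 for fibroblasts. The part of these marker levels in the results was not tested.

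In deltamethrin-treated cells the sensors Atf6 and Ern1, the ERAD genes Sel1l, Herpud1, Derl1 and Edem2, the ER-bound factor Creb3 and the oxidase Ero1a had higher values, by 1.41- to 2.18-fold. The classical chaperones Hspa5, Hsp90b1, Calr and Canx had estimates within 0.23 of 0 on the log2 scale. With an adjusted p below 0.05 in limma, 0 of the 37 members were called, where 0.432% of all 22206 probe sets were, and the smallest adjusted p among the members was 0.129, that of Atf6. At an unadjusted p below 0.05, 8 of 37 members (21.6%) were higher, against 6.83% of all probe sets, and 0 were lower, against 6.84%. Among the 13320 probe sets above the 40th percentile of level, which hold 36 of the 37 members, the shares were 9.32% higher and 7.98% lower. The 8 are 1 chaperone or folding gene of 19, 4 ERAD genes of 12 and 3 sensor genes of 6. Without vehicle replicate 1 there were 4 such genes (Herpud1, Sel1l, Atf6 and Ern1). In bulk RNA, fewer cells of a kind and less of a transcript per cell cannot be told apart.

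**Figure D1:**
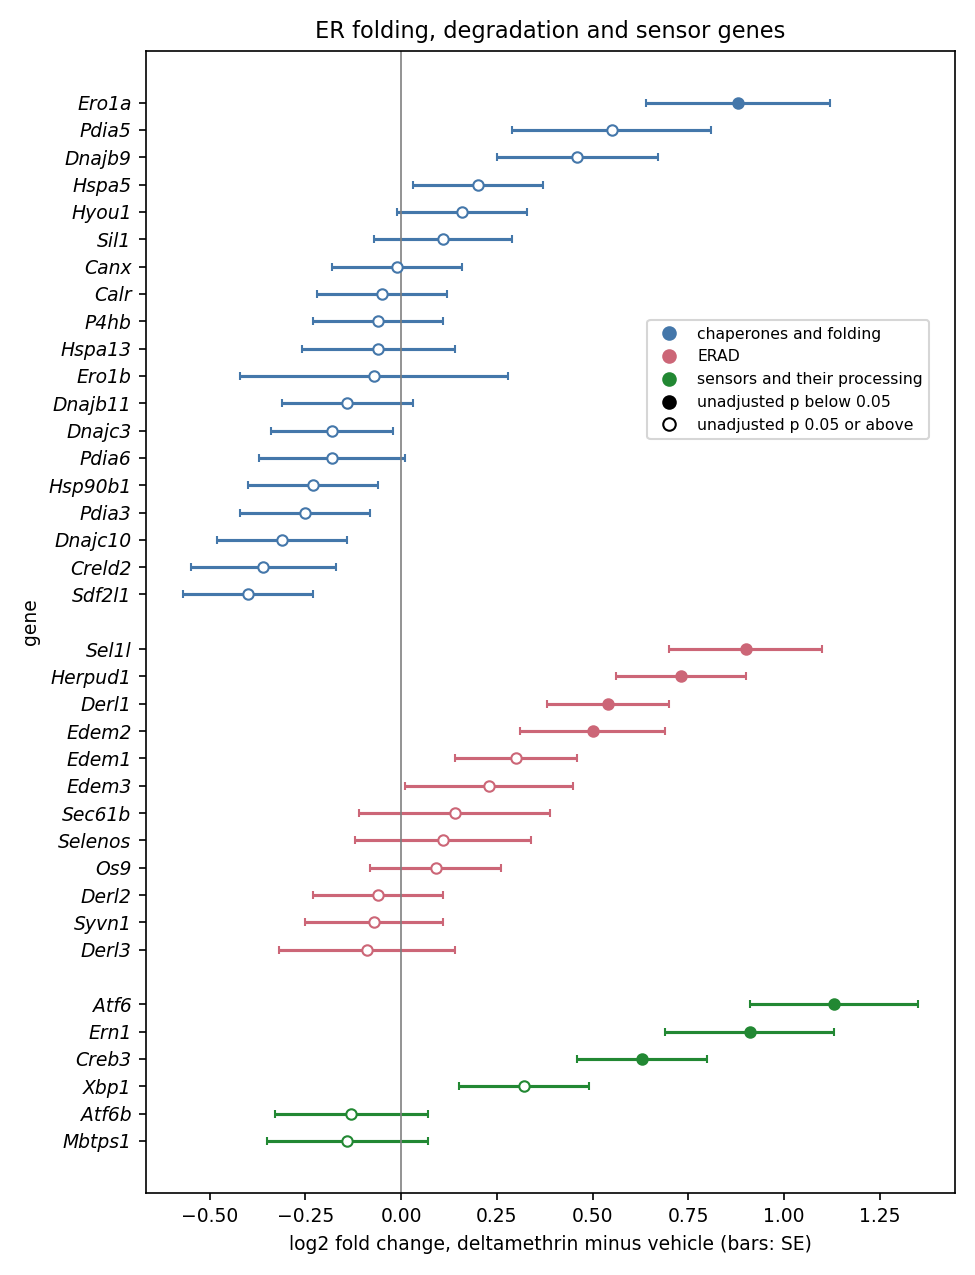
Log2 fold change (deltamethrin minus vehicle, x axis, bars show SE) of the 37 measured genes, grouped by role and sorted by size, from 2 arrays per treatment. Filled points mark an unadjusted p below 0.05, and all 8 of them lie to the right of 0, 3 of them among the 6 sensor genes.

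Call status depended on how the variance was modelled. When limma was given a mean-variance trend, so that the spread assumed for a gene follows its level, 6 of the 37 members (16.2%) were called higher and 0 lower, against 2.25% and 1.38% of all probe sets. Of the members, 36 lay above the 40th percentile of level, and the share called among such probe sets was not counted in this fit. The 6 called members were Atf6 (adjusted p = 0.00655), Herpud1 (0.00517), Sel1l (0.0202), Ero1a (0.0273), Derl1 (0.0343) and Ern1 (0.0351).

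The sensor genes had the highest median estimate of the 3 roles. This role leaves out the gene of the sensor PERK, Eif2ak3, which was read in another list. Eif2ak3 was lower on both deltamethrin arrays (-0.18 ± 0.17). Atf6, the membrane-bound transcription factor whose cut fragment moves to the nucleus, was at 13.67 and 14.22 on deltamethrin arrays and 12.85 and 12.79 on vehicle arrays. Both deltamethrin arrays were above both vehicle arrays, and the second stood 0.55 above the first, while the vehicle arrays differed by 0.06. The log2 fold change was 1.13 ± 0.22 (SE, n = 2, adjusted p = 0.129), with a 95% interval of 0.59 to 1.66. Ern1, which encodes the kinase and RNase IRE1α, was at 10.35 and 10.58 with deltamethrin against 9.31 and 9.79 with vehicle. The groups did not overlap, and the log2 fold change was 0.91 ± 0.22 (adjusted p = 0.175). Creb3 encodes another ER-anchored transcription factor of the bZIP class that is released by the same proteases. It was at 9.99 and 9.97 on deltamethrin arrays and 9.25 and 9.45 on vehicle arrays. Its deltamethrin arrays were nearly equal and both higher than vehicle, with a log2 fold change of 0.63 ± 0.17 (adjusted p = 0.205).

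The other members of this role had lower estimates. Xbp1, the substrate of IRE1, was at 14.67 and 14.61 on deltamethrin arrays and 14.21 and 14.43 on vehicle arrays, a log2 fold change of 0.32 ± 0.17 (adjusted p = 0.482). The groups did not overlap. The value is for the gene as a whole and does not separate spliced from unspliced Xbp1 mRNA. Atf6b, the paralogue of Atf6, was at 12.13 and 12.20 with deltamethrin and 12.10 and 12.49 with vehicle. Its groups overlapped, and the estimate was -0.13 ± 0.20, with a 95% interval of -0.60 to 0.34. Mbtps1, the site 1 protease, had an estimate of -0.14 ± 0.21 with overlapping groups. The median of the 6 was 0.47, against -0.02 over all probe sets.

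Among ERAD genes, the higher estimates were those of Sel1l, Herpud1, Derl1 and Edem2. Sel1l, the adaptor that holds the ubiquitin ligase HRD1 and its substrates together, was at 11.63 and 11.95 on deltamethrin arrays and 10.74 and 11.04 on vehicle arrays. The lowest deltamethrin value lay 0.59 above the highest vehicle value, and the log2 fold change was 0.90 ± 0.20 (adjusted p = 0.153). Herpud1, an ER membrane protein with a ubiquitin-like domain that joins the same complex, was at 15.19 and 15.12 with deltamethrin and 14.36 and 14.49 with vehicle. It separated the groups with little spread within either, at 0.73 ± 0.17 (adjusted p = 0.159). Derl1, a derlin of the retrotranslocation channel, was at 13.39 and 13.45 with deltamethrin and 12.89 and 12.87 with vehicle, a log2 fold change of 0.54 ± 0.16 (adjusted p = 0.241). Edem2, which trims mannose from misfolded glycoproteins, was at 11.80 and 11.92 with deltamethrin and 11.20 and 11.52 with vehicle, at 0.50 ± 0.19 (adjusted p = 0.326).

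The remaining ERAD genes were closer to 0. Syvn1, the ligase HRD1 itself, was at 9.20 and 9.44 on deltamethrin arrays and 9.50 and 9.28 on vehicle arrays. Its groups overlapped and the estimate was -0.07 ± 0.18, with a 95% interval of -0.52 to 0.38. Edem1 was at 0.30 ± 0.16, from 12.39 and 12.43 with deltamethrin and 12.05 and 12.17 with vehicle, and Edem3 at 0.23 ± 0.22, with 95% intervals that overlap that of Edem2. Derl2 was at -0.06 ± 0.17. Derl3 was dim on all arrays, at 4.09 and 3.60 with deltamethrin and 4.08 and 3.80 with vehicle, and was the 1 member below the 40th percentile of level. The lectin gene Os9 (0.09), Selenos (0.11), which recruits the p97 ATPase, and the translocon subunit Sec61b (0.14) all had overlapping groups. The median of the 12 was 0.19. It was 0.05 without vehicle replicate 1 and 0.39 without vehicle replicate 2, so this median depended on which vehicle array was kept.

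**Figure D2:**
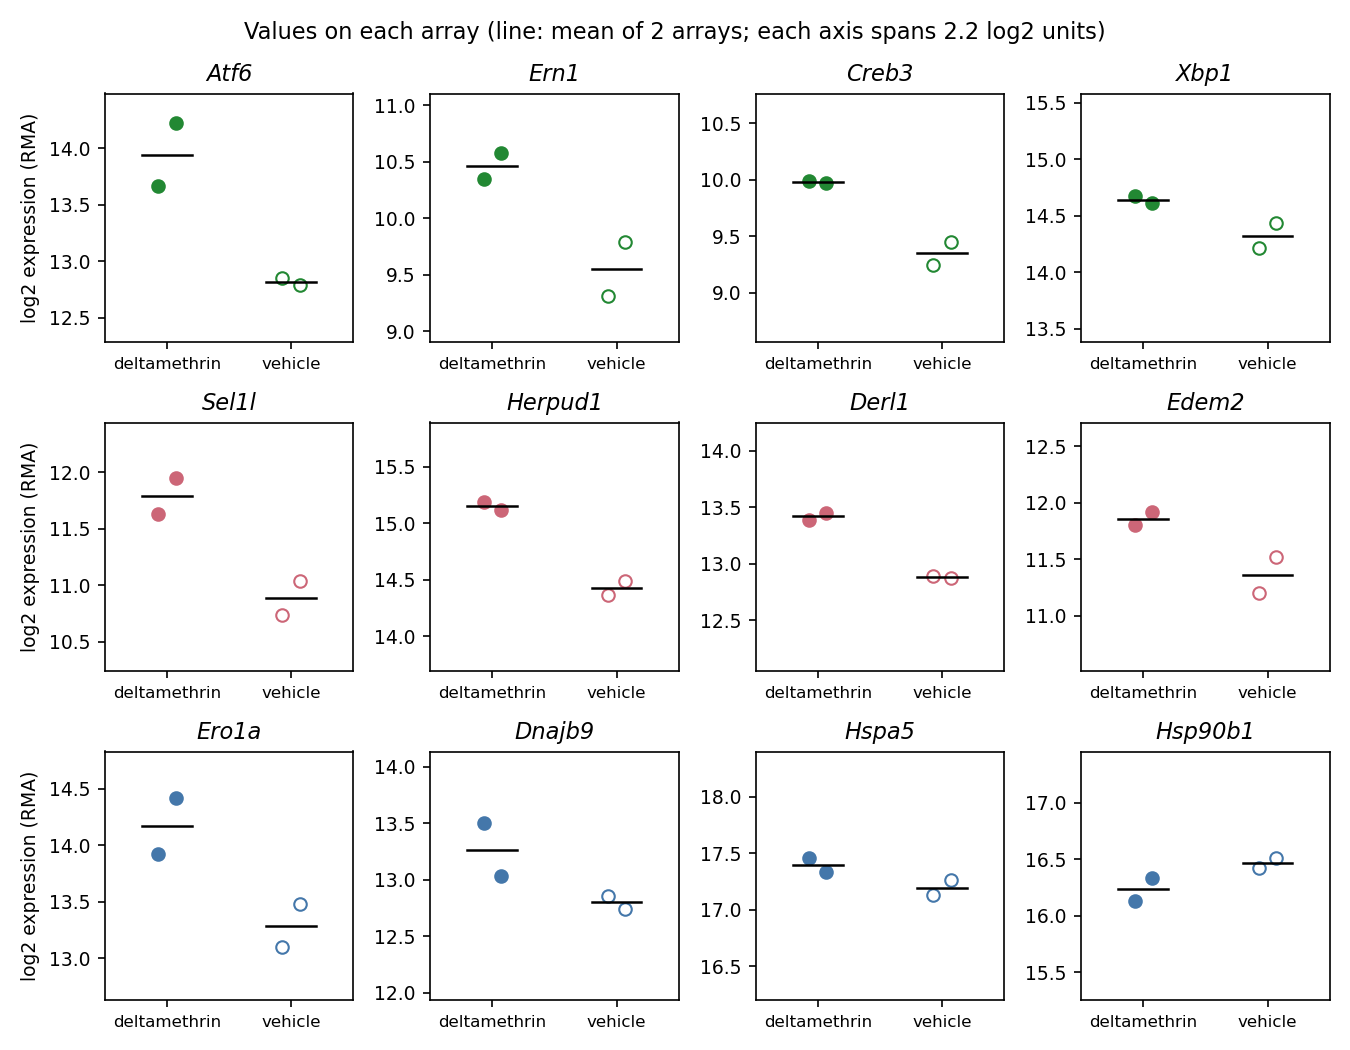
Log2 expression (y axis, RMA, each panel spanning 2.2 units) of 12 genes on each of the 2 deltamethrin arrays (filled) and 2 vehicle arrays (open), with lines at the means. In 11 panels both deltamethrin arrays lie above both vehicle arrays, and in the Hsp90b1 panel both lie below. The panels include the 8 members with an unadjusted p below 0.05, so they do not stand for all 37. Of the 37, 14 were higher on both arrays (37.8%), 7 lower (18.9%) and 16 overlapped. Over all probe sets, 20.3% were higher and 23.5% lower.

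Of the 19 chaperones and folding genes, 13 had an estimate below 0 (68.4%), against 53.3% of all probe sets. Hspa5, the Hsp70 chaperone BiP that also holds the sensors inactive, was at 17.46 and 17.33 on deltamethrin arrays and 17.13 and 17.26 on vehicle arrays. The groups did not overlap, but the gap between them was 0.07, and the log2 fold change was 0.20 ± 0.17 (adjusted p = 0.664) with a 95% interval of -0.21 to 0.61. Hsp90b1, the ER form of Hsp90 (GRP94), was at 16.13 and 16.34 with deltamethrin and 16.42 and 16.51 with vehicle, which is lower on both arrays, at -0.23 ± 0.17 (adjusted p = 0.619). Calr, the lectin calreticulin, was at 16.96 and 16.86 with deltamethrin and 16.88 and 17.04 with vehicle. Its groups overlapped, the estimate was -0.05 ± 0.17, and its sign turned under cyclic loess scaling (0.02). These 3 chaperones gave values of 16.13 and above on arrays whose maxima began at 18.65, and whether a ceiling of the arrays limits them was not tested.

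Cofactors of BiP went both ways. Hyou1, a nucleotide exchange factor, was at 15.06 and 14.98 on deltamethrin arrays and 14.74 and 14.97 on vehicle arrays, a log2 fold change of 0.16 ± 0.17. The J-domain protein gene Dnajb9 (ERdj4), which binds misfolded proteins and IRE1, was at 13.50 and 13.03 with deltamethrin and 12.86 and 12.74 with vehicle. Its deltamethrin arrays were both higher but 0.47 apart, and the log2 fold change was 0.46 ± 0.21 (adjusted p = 0.401). Other J-domain genes had negative estimates, namely Dnajb11 (-0.14), Dnajc3 (-0.18) and the disulfide reductase gene Dnajc10 (-0.31), and all 3 were lower on both deltamethrin arrays. The lowest estimates of the role were those of Sdf2l1, a partner of Dnajb11, at -0.40 ± 0.17 (adjusted p = 0.381), and of the secreted ER stress protein gene Creld2, at -0.36 ± 0.19 (adjusted p = 0.468). Sdf2l1 was at 10.77 and 10.55 with deltamethrin and 11.05 and 11.07 with vehicle. Sil1 (0.11) and Hspa13 (-0.06) had overlapping groups.

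In the disulfide system, the highest estimate was that of Ero1a, an oxidase that recharges the isomerases. It was at 13.92 and 14.42 on deltamethrin arrays and 13.10 and 13.48 on vehicle arrays. The groups did not overlap, although arrays of one treatment differed by 0.50 and 0.38, and the log2 fold change was 0.88 ± 0.24 (adjusted p = 0.204). Its paralogue Ero1b was at 7.49 and 8.56 with deltamethrin and 7.96 and 8.23 with vehicle, an estimate of -0.07 ± 0.35, the widest error among the members. P4hb, the founding protein disulfide isomerase, was at 12.42 and 12.28 with deltamethrin and 12.42 and 12.40 with vehicle (-0.06 ± 0.17). Pdia3, which works with the lectins, was at -0.25 ± 0.17 and Pdia6 at -0.18 ± 0.19. Pdia5 was at 0.55 ± 0.26 (adjusted p = 0.410), with groups that did not overlap. The lectin Canx was at -0.01 ± 0.17.

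By role, the groups did not overlap with deltamethrin higher in 5 of 19 chaperones and folding genes (26.3%), 5 of 12 ERAD genes (41.7%) and 4 of 6 sensor genes (66.7%), against 20.3% of all probe sets and 24.7% of those above the 40th percentile of level. With deltamethrin lower they did not overlap in 7 of 19 chaperones and folding genes (36.8%), and in 0 of the ERAD and sensor genes, against 23.5% of all probe sets and 25.6% of those above that percentile. The medians were -0.06 for chaperones and folding genes, 0.19 for ERAD and 0.47 for sensors. Over all probe sets the median was -0.02 and the quartiles were -0.22 and 0.17. The order of the 3 medians was the same in every setting that was run, though several of these settings could not have changed it. No test of the difference between roles was made. Relative to the vehicle mean, the per-array medians on the 2 deltamethrin arrays were -0.09 and -0.10 for chaperones, 0.22 and 0.33 for ERAD and 0.50 and 0.46 for sensors. On the 2 vehicle arrays they were -0.05 and 0.04, -0.06 and 0.06, and -0.14 and 0.14 for the same roles.

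**Figure D3:**
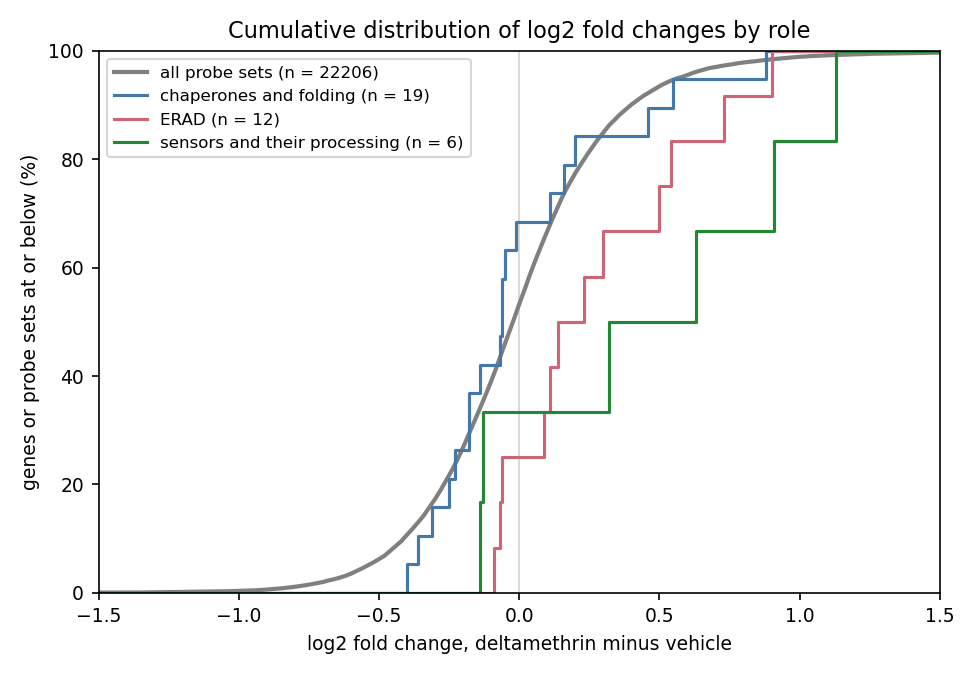
Share of genes or probe sets (y axis, %) at or below a given log2 fold change (x axis, deltamethrin minus vehicle) for the 3 roles and for all 22206 probe sets. The chaperone line (n = 19) crosses that of all probe sets and has reached 68.4% at 0, against 53.3%, while the ERAD (n = 12) and sensor (n = 6) lines have medians of 0.19 and 0.47.

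Promoters were read because chaperone genes are known for a shared element, the ER stress response element (ERSE), which ATF6 binds together with the factor NF-Y. It is made of CCAAT and CCACG with 9 bases between them. A shorter form, ERSE-II, is ATTGG and CCACG with 1 base between them, and the core of the unfolded protein response element (UPRE) is TGACGTG followed by G or A. All were searched as exact letters on both strands in RefSeq promoter windows of 300 bases (250 before and 50 after the annotated start, build GRCm38.p6), which were read for 34 members and not for Atf6, Derl1, Hspa13, Hyou1, Manf and Sil1. The sequences below are the 250 bases before the start, 5′ to 3′ on the strand of the gene, with the matched letters in capitals. They are shown because 3 hold an ERSE in a chaperone gene and 1 holds the ERSE-II of Herpud1. The last, that of Sel1l, belongs to a higher ERAD gene with no full match to any of these elements.
Hspa5 (chr2:34771840-34772089, plus strand): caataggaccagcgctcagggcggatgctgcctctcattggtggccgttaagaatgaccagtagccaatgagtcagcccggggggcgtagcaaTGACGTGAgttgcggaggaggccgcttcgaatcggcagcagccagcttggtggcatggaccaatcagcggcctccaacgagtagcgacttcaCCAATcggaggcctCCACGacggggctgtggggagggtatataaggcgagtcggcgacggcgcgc
Hsp90b1 (chr10:86705445-86705694, minus strand): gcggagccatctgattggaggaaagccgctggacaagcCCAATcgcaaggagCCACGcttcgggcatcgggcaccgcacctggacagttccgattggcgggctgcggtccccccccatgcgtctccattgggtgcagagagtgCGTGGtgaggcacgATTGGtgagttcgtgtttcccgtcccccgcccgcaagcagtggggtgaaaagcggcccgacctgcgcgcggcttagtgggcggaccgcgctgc
Calr (chr8:84846932-84847181, minus strand): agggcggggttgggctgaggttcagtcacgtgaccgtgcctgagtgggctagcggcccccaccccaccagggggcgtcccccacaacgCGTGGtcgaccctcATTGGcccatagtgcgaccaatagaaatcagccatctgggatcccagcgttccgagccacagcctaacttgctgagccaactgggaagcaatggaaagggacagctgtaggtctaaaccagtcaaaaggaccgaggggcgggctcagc
Herpud1 (chr8:94386179-94386428, plus strand): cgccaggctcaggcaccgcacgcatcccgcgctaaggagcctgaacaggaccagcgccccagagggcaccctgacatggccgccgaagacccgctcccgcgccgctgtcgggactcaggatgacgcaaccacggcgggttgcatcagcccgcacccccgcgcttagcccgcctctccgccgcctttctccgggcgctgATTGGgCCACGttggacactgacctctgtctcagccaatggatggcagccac
Sel1l (chr12:91849158-91849407, minus strand): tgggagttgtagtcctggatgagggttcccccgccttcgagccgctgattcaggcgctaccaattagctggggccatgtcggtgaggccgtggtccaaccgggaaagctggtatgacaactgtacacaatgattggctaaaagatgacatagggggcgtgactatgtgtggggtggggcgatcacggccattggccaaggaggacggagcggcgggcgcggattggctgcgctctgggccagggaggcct

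An exact ERSE was found in 10 of the 34 members' promoters (29.4%), against 37 of 27025 genes (0.137%). An ERSE-II was found in 2 (5.88%), Herpud1 and Dnajb11, against 12 genes (0.0444%). The UPRE core was found in 1 (2.94%), Hspa5, against 329 genes (1.22%), and it did not overlap the ERSE there. The ERSE genes were Hspa5, Hsp90b1, Calr, Canx, Pdia6, Ero1b, Dnajc3, Creld2, Syvn1 and Derl3, 8 of them chaperones and folding genes. Hsp90b1 held 2 copies, at -212 and -107 from the start. In Hspa5 the ERSE began at -65, and in Herpud1 the ERSE-II began at -52.

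Of the 10 members with an ERSE, 0 had an unadjusted p below 0.05, beside 6.83% higher and 6.84% lower over all probe sets. Their estimates ran from -0.36 to 0.20 with a median of -0.08, and 9 were below 0, beside 53.3% of all probe sets. Among the 9, Calr, Canx, Ero1b, Syvn1 and the dim Derl3 changed sign when some array was left out. Of 20 measured members whose windows held neither ERSE nor ERSE-II, 5 had an unadjusted p below 0.05 and a higher value (Ern1, Sel1l, Ero1a, Creb3 and Edem2), beside the same 6.83%, and the median was 0.18. The difference between members with and without an ERSE was not tested. Herpud1 was the 1 gene with an unadjusted p below 0.05 among the 12 members with either element. Outside the members, 25 measured genes held either element, with a median of 0.21 and with 6 higher and 0 lower at an unadjusted p below 0.05, against the same 6.83% and 6.84%. Of these 6, Xlr3a and Xlr3c are copies in a family of near-identical genes and are not separate observations. A match is a description of letters in a window, and binding was not measured.

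**Figure D4:**
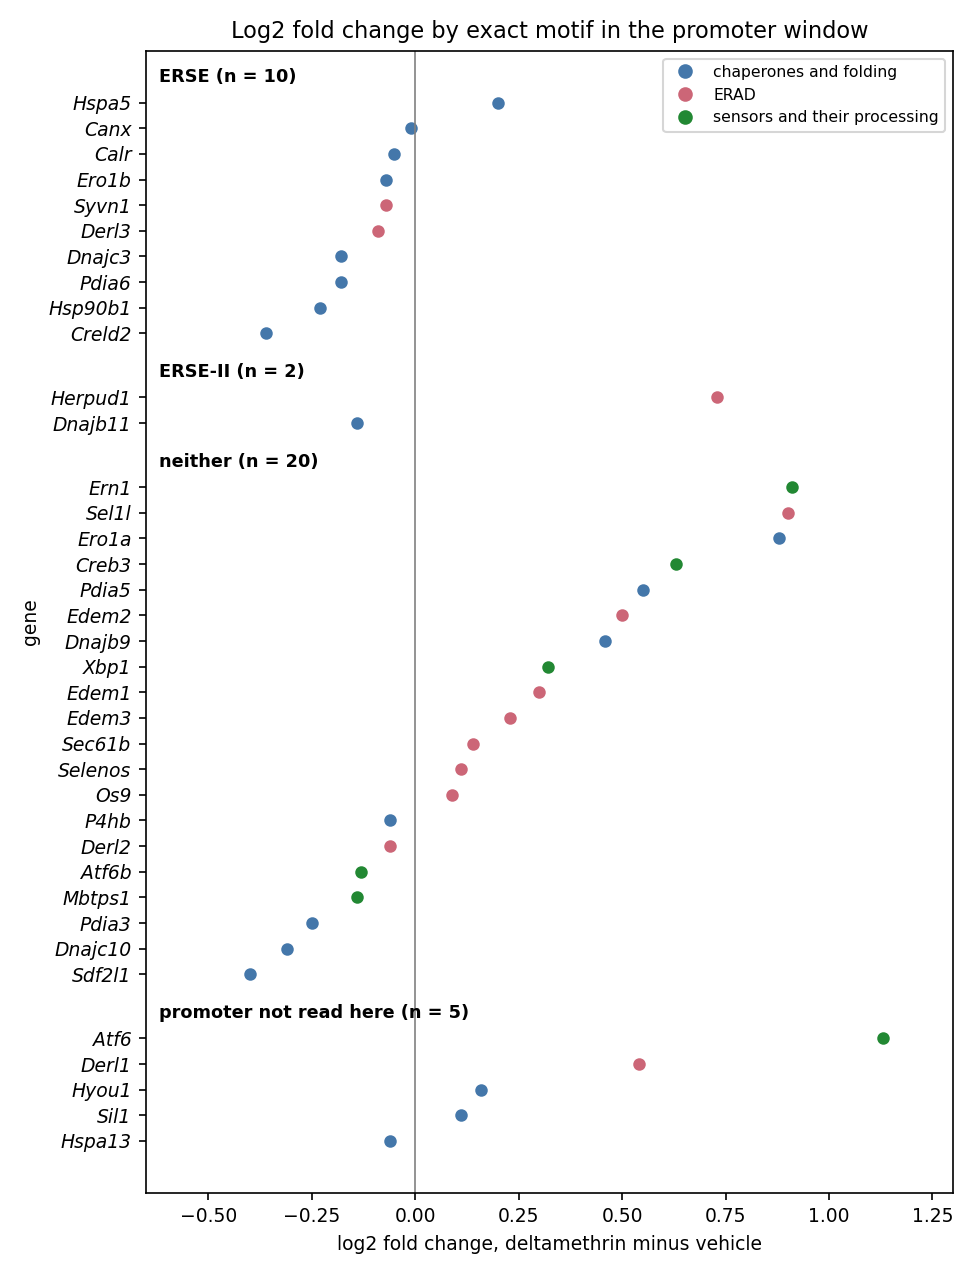
Log2 fold change (x axis, deltamethrin minus vehicle) of the 37 measured genes by the exact motif found in the promoter window, with colours for the role. The 10 genes with an ERSE lie between -0.36 and 0.20, and the gene furthest to the right among those with either element is Herpud1 at 0.73.

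Further genes of the same pathways were read beside the 0.432% of all probe sets called either way. At that share a short list is likely to hold 0 calls, so 0 is not a result about the list. Of 32 measured folding and glycan-processing enzymes, 0 rose and 0 fell, and the median was 0.02 (0.13 without vehicle replicate 2 and 0.00 to 0.01 without each other array). Those of smallest p were the prolyl isomerase genes Fkbp11 (0.95 ± 0.26) and Fkbp14 (-0.55 ± 0.17), the membrane J-domain gene Dnajb12 (0.66 ± 0.19) and the membrane thioredoxin-like gene Tmx3 (0.52 ± 0.17). Among 21 further ERAD genes 0 rose and 0 fell, with a median of 0.09, which was 0.00 without deltamethrin replicate 2, 0.03 without vehicle replicate 1 and 0.16 without vehicle replicate 2. The smallest p was that of Rnf185, an ER membrane ubiquitin ligase, which was at 10.63 and 10.41 on deltamethrin arrays and 9.17 and 9.29 on vehicle arrays. Its groups stood 1.12 apart, and the log2 fold change was 1.29 ± 0.18 (adjusted p = 0.0528). Next in order were Ubxn8, which tethers p97 to the ER (-0.59 ± 0.17), Erlin1 (0.53 ± 0.21) and Ubxn4 (0.39 ± 0.17).

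Of 24 translocation and signal peptidase genes 0 rose and 0 fell, beside 0.432% of all probe sets called either way. The median was -0.06 (-0.03 without deltamethrin replicate 2 and -0.01 without vehicle replicate 1). The smallest p belonged to the translocon-associated protein gene Ssr4 (0.46 ± 0.16), followed by Srp9 (-0.36 ± 0.16), Tram1 (-0.35 ± 0.16) and Ssr2 (0.33 ± 0.17). Among 8 receptors that direct ER to autophagy 0 rose and 0 fell, beside the same 0.432%. Their median was 0.16, which was 0.01 without vehicle replicate 1 and 0.27 without vehicle replicate 2. Retreg1 was at 9.99 and 10.36 with deltamethrin and 9.39 and 9.35 with vehicle, a log2 fold change of 0.81 ± 0.19 (adjusted p = 0.173). Tex264 was at 0.68 ± 0.22, Calcoco1 at 0.43 ± 0.19 and Retreg2 at 0.30 ± 0.21.

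Calls were found in the list of the PERK arm, other ER-bound bZIP factors and further ER stress regulators. There 4 of 19 measured genes rose and 0 fell, against 0.432% of all probe sets called either way. The list was chosen with earlier results of these data known, so this count is not an independent comparison with that share. The median of that list was 0.28, and 0.12 without vehicle replicate 1. The PERK gene itself, Eif2ak3, was at 12.08 and 12.18 with deltamethrin and 12.23 and 12.39 with vehicle (-0.18 ± 0.17). Atf4, the factor translated when eIF2α is phosphorylated, was at 16.21 and 16.32 with deltamethrin and 16.01 and 16.06 with vehicle (0.23 ± 0.16), and neither gene was called. The 4 calls were Atf3, Ppp1r15a, Ddit3 and Trib3, which are stress factors and regulators downstream of eIF2α phosphorylation. Ddit3, which encodes CHOP, was at 14.29 and 14.47 with deltamethrin and 11.45 and 12.17 with vehicle (2.57 ± 0.26, adjusted p = 0.0261). Its second probe set rose by 2.79 ± 0.26. Atf3 rose by 2.16 ± 0.17, Trib3 by 1.40 ± 0.17 and Ppp1r15a, from dim vehicle values of 3.45 and 3.79, by 3.03 ± 0.31. All 4 estimates lay above those of the 37 members, the highest of which was 1.13 for Atf6. Wfs1 of the same list, which was not called, also lay above the members and above Trib3 (1.53 ± 0.25, adjusted p = 0.0864). The 4 called genes were picked by their calls and none of the members was called, so their order against the members follows in part from that choice. All 4 calls were lost when any 1 of the 4 arrays (deltamethrin replicate 1 or 2, vehicle replicate 1 or 2) was left out.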

How the data were processed

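The 4 arrays, 2 per treatment, were grouped by sample title. The deposited values are log2 expression, 1 per probe set and array, which the authors produced with RMA. Per the submitters' processing notes, Transcriptome Analysis Console was used as well. Neither a version nor the variant of RMA is stated there. Log2 was read from the values, which span 1.92 to 18.75. RMA aligns the arrays' distributions, so a shift shared by all genes cannot be seen. The number of arrays limits the precision (median SE 0.19).

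All 22206 probe sets were fitted with limma 3.58.1 in R 4.3.3 (lmFit, eBayes, no trend, no block, 4.43 prior and 2 residual degrees of freedom). Two-sided p-values were Benjamini-Hochberg adjusted across the whole table. Probe sets under 0.05 after adjustment are calls, and "rose" and "fell" are kept for them. Every adjusted p, ± SE and 95% interval in the text comes from this fit unless another is named. Symbols came from the platform annotation, of which 19572 probe sets had 1, none several, and 2634 were unnamed here. A gene with several probe sets was represented by the brightest.

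Per-array values were given for members with an unadjusted p below 0.05 and for 17 genes always included. Of the 17, 2 (Pdia4 and Manf) were not analysed here. Sdf2l1, Ero1b, Atf6b, Eif2ak3, Atf4, Wfs1, Isl1, Th, Pdgfrb, Xlr3a and Xlr3c were added after their values were seen. From other pathway lists the 4 genes of smallest p were named. The members, their roles and the lists were chosen with earlier results of these data known. Promoters are from RefSeq (GRCm38.p6). The planned protein features were not run. Alternatives were a replicate block, a filter on dim probe sets, 3 normalizations, 3 variance models, 1 probe set per gene and leaving out each array. The fit was also run on simulated independent values whose spreads followed limma's own prior. Such data cannot check for batch or shared array effects.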

Additional observations from a re-analysis of the deposited data

How the results depend on the processing

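With the replicate number as a block, 0 probe sets were called (0 higher, 0 lower), 0 genes of the list of the PERK arm and other bZIP factors were called, and 9 members were higher at an unadjusted p below 0.05. Numbers are shared in the titles alone, and deviations of same-numbered arrays correlated at 0.13. Leaving out any 1 of the 4 arrays also gave 0 calls over all probe sets (0 higher, 0 lower; 1631 to 2779 at an unadjusted p below 0.05) and 0 in that list, with the lone array of a treatment assumed to vary like the other treatment. Members at an unadjusted p below 0.05 then numbered 4 to 8 higher and 0 to 1 lower. The chaperone median ran from -0.13 to -0.05 and the ERAD median from 0.05 to 0.39. Of the 37 member estimates, 15 changed sign when some array was left out, each with an estimate within 0.23 of 0 from all arrays, and 22 did not. Among the 15 were Calr (-0.13 to 0.03), P4hb (-0.13 to 0.01), Syvn1 (-0.19 to 0.05), Derl3 (-0.34 to 0.15) and Ero1b (-0.60 to 0.47). Leaving out dim probe sets, which tests fewer, called 312 (239 higher, 73 lower), with 1 member (Sdf2l1) lower at an unadjusted p below 0.05 and 1 further ERAD gene called (Rnf185). With cyclic loess Calr was at 0.02, Canx also changed sign in a setting that kept all arrays, and 1 further ERAD gene was called, as with 1 probe set per gene. A mean-variance trend called 806 (500 higher, 306 lower), including 1 chaperone or folding gene, 3 ERAD and 2 sensor genes, all higher, and 1 folding enzyme, 2 further ERAD genes and 1 ER-phagy receptor. At an unadjusted p below 0.05 it gave 13 members higher and 4 lower. The cause of these differences was not tested. The order of the 3 role medians was the same in all 14 settings, but not all of these could change it. A replicate block, a mean-variance trend, robust moderation and 1 probe set per gene leave the member estimates as they are. Median centring shifts all genes alike. The order could change only with quantile or cyclic loess scaling, the filter on dim probe sets, array weights or an array left out. In quantile, cyclic loess and median-centred values, and with robust moderation and array weights, the same 8 members were higher at an unadjusted p below 0.05.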
